A study of Caenorhabditis elegans with 16 samples.

Results

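The genes described here encode the enzymes that activate and oxidize fatty acids in Caenorhabditis elegans. They were chosen by name from a table of 20447 protein-coding genes: every gene whose symbol begins with acs-, acdh-, acox- or ech-, together with *hacd-1*, *kat-1*, *maoc-1*, *dhs-28* and *daf-22*. This gave 57 genes: 22 acyl-CoA synthetases (acs), 13 acyl-CoA dehydrogenases (acdh), 7 acyl-CoA oxidases (acox), 10 genes of the enoyl-CoA hydratase family (ech) and the 5 genes of the later steps. All 57 were found in the Ensembl annotation of the WBcel235 genome, on all 6 chromosomes.

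Poly-A RNA was sequenced from whole worms, about 1000 day 1 adults per library, of 4 strains at 2 temperatures with 2 libraries per group, 16 in all. The strains were wild type (wt, N2), *ets-4* with the allele rrr16, *ets-4/daf-16* with that allele and *daf-16(mu86)*, and *ets-4/pqm-1* with that allele and *pqm-1(ok485)*, so both double mutants also carry the *ets-4* allele and no strain lacks *daf-16* or *pqm-1* alone. All 3 mutated genes encode transcription factors. The warm libraries came from animals grown at 20 °C, and the cold ones from animals that spent 2 h at 10 °C followed by 24 h at 4 °C. The labels number the libraries of a group as replicates 1 and 2. The p-values measure the spread between these libraries that is left once a difference between replicates 1 and 2 shared by the groups is removed.

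A fatty acid is first joined to coenzyme A by an acyl-CoA synthetase. It is then shortened in rounds of oxidation, hydration, a second oxidation and cleavage by a thiolase. In mitochondria the first oxidation is done by acyl-CoA dehydrogenases and the shortening feeds energy production. In peroxisomes it is done by acyl-CoA oxidases, and in C. elegans the peroxisomal route through MAOC-1, DHS-28 and DAF-22 also trims the side chains of the ascaroside pheromones. Some acs, acdh and ech genes serve other routes, such as the breakdown of propionate and of branched-chain amino acids, so a shared name does not place a gene in one pathway.

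Library totals ranged from 32046029 to 48770269 reads at 20 °C and from 36049588 to 43039567 at 4 °C. The *ets-4* transcript, in reads scaled to library size (CPM, with TMM scaling), was 60.8 and 85.1 in wt, then 4.41 and 8.84 in *ets-4*, 7.42 and 12.5 in *ets-4/daf-16* and 11.6 and 11.7 in *ets-4/pqm-1* at 4 °C. At 20 °C it was 25.8 and 26.1 in wt, then 76.9 and 163 in *ets-4*, 85.5 and 183 in *ets-4/daf-16* and 109 and 196 in *ets-4/pqm-1*, above wt in every library labelled as a mutant. The labels name alleles, not transcript levels, and the warm strains are therefore called "the libraries labelled" with their strain where a direction is drawn between them. *daf-16* had 105 and 114 CPM in its double mutant at 4 °C against 250.1 and 226 in *ets-4*, and *pqm-1* had 151 and 141 against 224 and 269.6. At 20 °C the libraries labelled *ets-4/daf-16* had 108 and 172 CPM of *daf-16* against 163 and 188 in those labelled *ets-4* and 162 and 156 in wt, so replicate 2 was above both wt libraries, which goes against its label as far as a transcript level can show it. For *pqm-1* the warm values were 6.06 and 15.7 in the libraries labelled *ets-4/pqm-1* against 20.4 and 33.5 in those labelled *ets-4*. The summed CPM of 6 intestinal marker genes was 1171 to 2277 at 20 °C and 485 to 1426 at 4 °C, and 5 of the 6 fell in every strain. The summed neuronal markers were 184 to 205 at 20 °C and 229 to 249.6 at 4 °C. Whether these shifts have a part in the changes below was not tested, and in RNA of whole animals fewer cells of a type and less RNA per cell cannot be told apart. The temperature and any difference in how the warm and cold libraries were prepared cannot be told apart either.

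The 57 genes together took a smaller share of the RNA in the cold. Their summed level was 7017 to 7637 CPM in the 8 warm libraries (median 7510.3) and 5022 to 6023 CPM in the 8 cold libraries (median 5644), so the temperatures did not overlap. As a share of all reads this was 0.733% to 0.796% at 20 °C and 0.515% to 0.565% at 4 °C. The acyl-CoA dehydrogenases summed to 2734 to 3190 CPM warm and 1519 to 1839 CPM cold. Of this, *acdh-1* alone had 1649 to 2201 CPM warm and 867 to 1072 CPM cold. Without *acdh-1*, the sums of all members and of the dehydrogenases overlapped between the temperatures. Within each strain, the sum of the other members was still lower in both cold libraries. The acyl-CoA oxidases summed to 147 to 191 CPM warm and 58.9 to 89.2 CPM cold. The hydratase family and the 5 genes of the later steps were also lower in every cold library, at 1257 to 1486 against 897 to 1198 CPM and at 500.1 to 589.5 against 351 to 445 CPM. Without *ech-6* (598 to 757 CPM warm, 270 to 407 cold) the sums of the hydratase family overlapped between the temperatures. Without *hacd-1* (48.8 to 127 CPM warm, 1.14 to 2.71 cold) those of the later steps overlapped too. The acyl-CoA synthetases overlapped, at 2152 to 2663 CPM warm and 2015 to 2537 CPM cold.

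**Figure D1:**
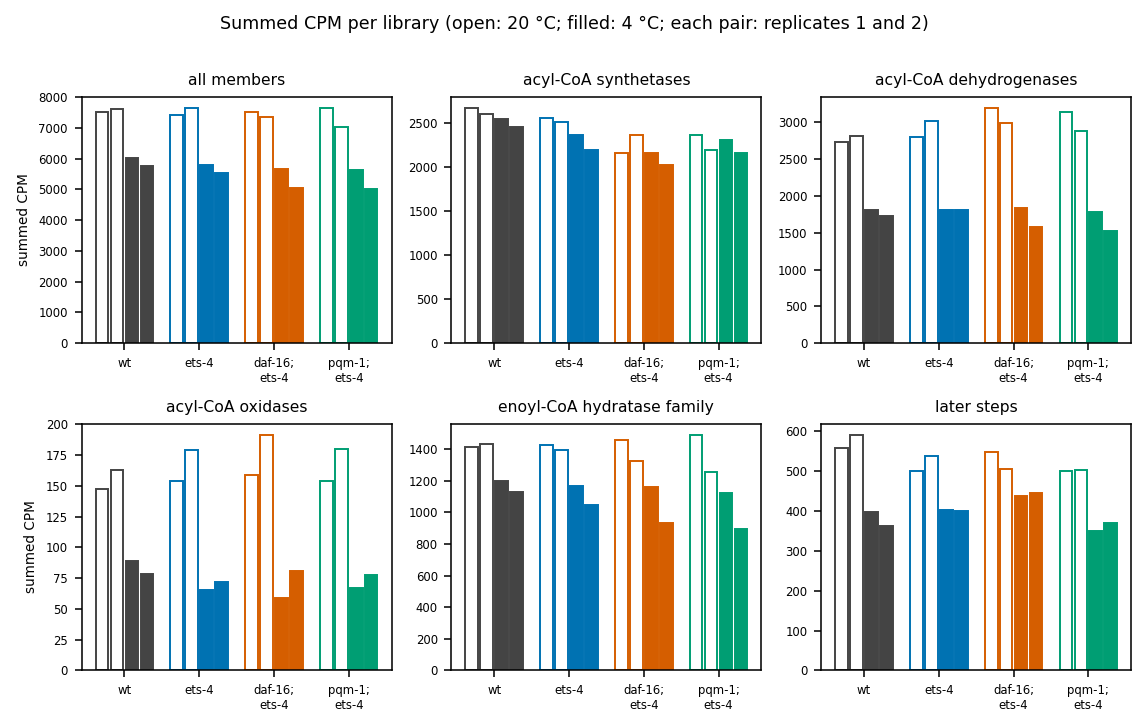
Summed CPM per library (vertical axes, from 0) of each gene family and of all 57 genes, for the 4 strains; open bars are 20 °C libraries, filled bars 4 °C libraries, and neighbouring bars of one colour and filling are replicates 1 and 2. The bars for all members, dehydrogenases, oxidases, hydratase family and later steps are lower in every 4 °C library, while those of the synthetases overlap.

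Per kilobase of exon, the levels spanned a wide range among the members. In wt at 20 °C *acdh-1* had the highest mean level, at 1026 CPM per kilobase, followed by *ech-6* at 604 and *acs-13* at 279. The lowest was *acs-15*, at 0.167 CPM per kilobase. Genes with few reads are given as read counts where that matters.

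In the cold response, the question was which of these genes changed between 20 °C and 4 °C within a strain. Most called members fell. In wt 31 of the 57 fell and 7 rose, where 22.6% of the 15775 genes tested fell and 19% rose. The *ets-4* strain gave 29 down and 7 up, against 23.1% and 21.3% of all genes. *ets-4/daf-16* gave 38 down and 6 up, against 28.5% and 25.8%, and *ets-4/pqm-1* 33 down and 8 up, against 25.8% and 25.9%. The median log2 fold change of the 57 genes was -0.74 in wt, -0.51 in *ets-4*, -0.78 in *ets-4/daf-16* and -0.72 in *ets-4/pqm-1*, while the median over all tested genes lay between -0.04 and -0.02. A call here is an adjusted p under 0.05 in edgeR's quasi-likelihood test over all genes, fitted with a term for the replicate number. The 4 strains are not independent repeats of the cold response, because the spread was estimated over all 16 libraries. The cold responses of the mutant strains are taken against the warm libraries labelled with them, whose *ets-4* transcript was above wt. The caution about those labels applies to these responses too.

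The same genes made up much of these counts. A total of 25 members fell in all 4 strains, as did 16.4% of all tested genes, and 6 rose in all 4, as did 15.1%. These 6 were *acs-4*, *acs-12*, *acs-16*, *acs-17*, *ech-1.2* and *dhs-28*. Another 7 were called in 0 of the 4 strains, against 32.6% of all genes: *acs-20*, *acdh-6*, *acdh-7*, *acdh-10*, *acdh-11*, *acdh-12* and *ech-4*. The other 19 were called in 1 to 3 strains. By levels alone, 23 members had all 8 warm libraries above all 8 cold ones (15% of all tested genes) and 4 had the reverse (12.7%), while 30 overlapped. The study's own rule, a change of at least 2-fold in both replicate pairs after adding 8 to scaled counts, was met by 17 members down and 2 up in wt (8.39% and 3.22% of all 20447 genes). In *ets-4* it was met by 12 down and 2 up (8.43% and 3.69%). *ets-4/daf-16* had 19 down and 1 up (11.5% and 3.52%), and *ets-4/pqm-1* 20 down and 1 up (10.7% and 3.32%).

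**Figure D2:**
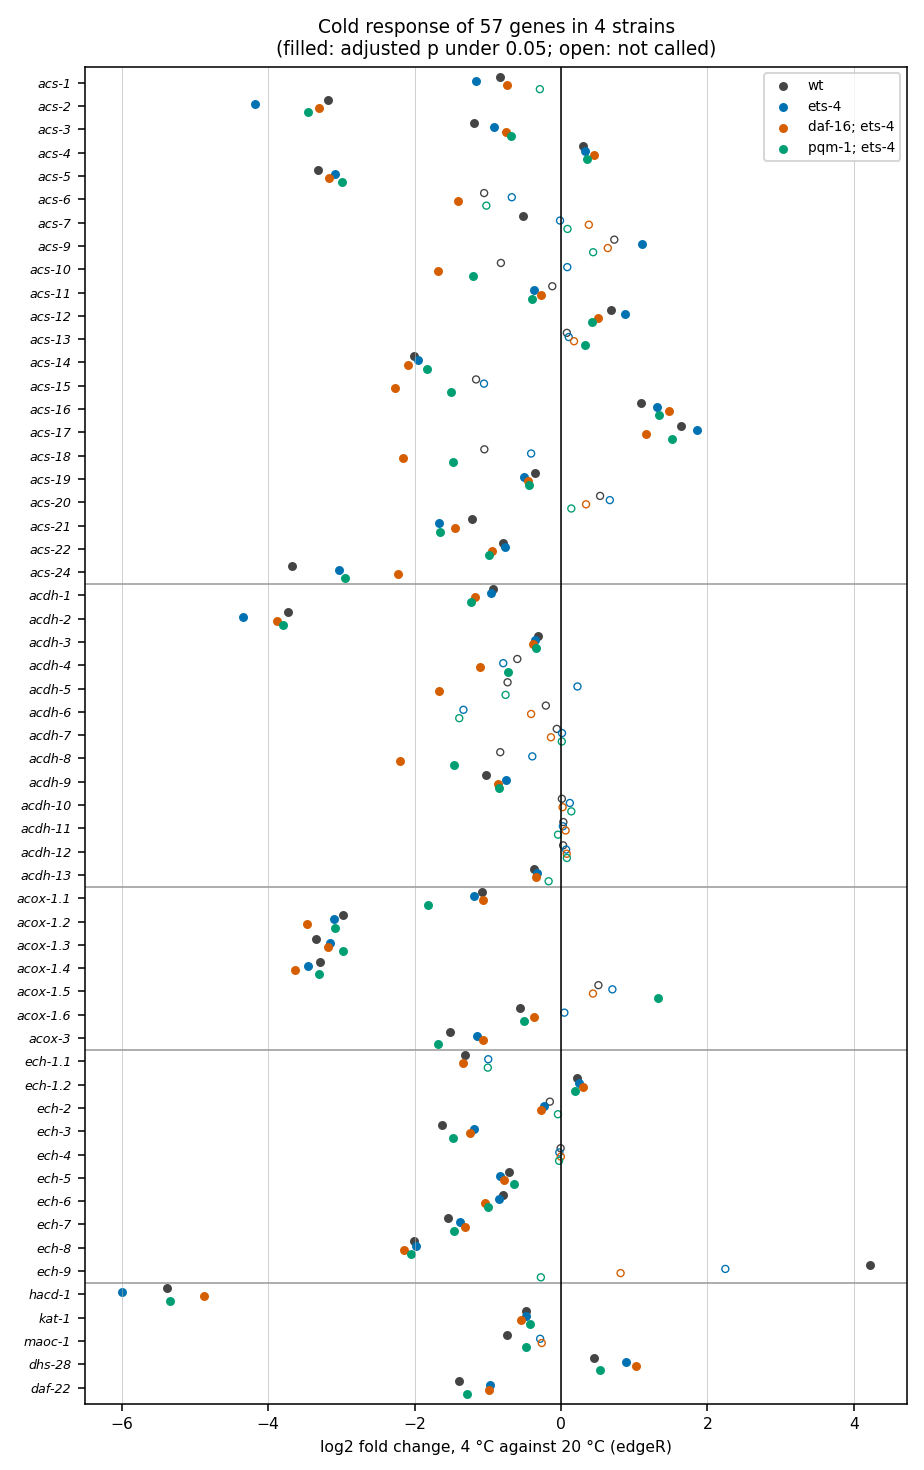
Log2 fold change of 4 °C against 20 °C (horizontal axis) for each of the 57 genes, one row per gene, with families separated by grey lines and the 4 strains in colours; filled points passed an adjusted p under 0.05 and open points did not. *hacd-1*, *acdh-2*, *acs-2*, *acs-5* and *acox-1.2* to *acox-1.4* lie at the far left in every strain, *acs-16* and *acs-17* at the right, and *ech-9* lies apart in wt.

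The first step of the pathway is activation. Of the 22 acyl-CoA synthetases, 10 fell and 4 rose in wt, 10 fell and 5 rose in *ets-4*, 14 fell and 4 rose in *ets-4/daf-16*, and 12 fell and 5 rose in *ets-4/pqm-1*. Of all tested genes, 22.6%, 23.1%, 28.5% and 25.8% fell and 19%, 21.3%, 25.8% and 25.9% rose in the same order. *acs-2* (WBGene00009221, chromosome V, 15567394 to 15569897), a synthetase gene known for its induction on fasting through the nuclear receptor NHR-49, fell strongly in every strain. At 20 °C, *acs-2* had 75.4 and 41.8 in wt, then 118 and 56.4 in *ets-4*, 72.3 and 36.4 in *ets-4/daf-16* and 87.3 and 40.5 in *ets-4/pqm-1* CPM. In the cold, *acs-2* had 8.67 and 4.53 in wt, then 4.75 and 4.26 in *ets-4*, 7.33 and 3.59 in *ets-4/daf-16* and 5.92 and 5.09 in *ets-4/pqm-1*. The warm libraries all lay above the cold ones, and replicate 2 was below replicate 1 in all 8 groups. For *acs-2* the log2 fold change was -3.18 ± 0.23 in wt, -4.17 ± 0.24 in *ets-4*, -3.31 ± 0.23 in *ets-4/daf-16* and -3.45 ± 0.23 in *ets-4/pqm-1*, where ± is the standard error of the edgeR fit, with no adjusted p above 1.80e-06. *acs-5* fell by a similar amount, with log2 fold changes of -2.99 to -3.31 over the strains, and *acs-14* had -1.84 to -2.09.

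*acs-24* (WBGene00016324, chromosome I, 3774634 to 3777468) was called down in all 4 strains, but on few reads. Its counts at 20 °C were 9 and 23 in wt, then 21 and 50 in *ets-4*, 21 and 41 in *ets-4/daf-16*, 42 and 45 in *ets-4/pqm-1*. Its counts at 4 °C were 1 and 1 in wt, then 2 and 6 in *ets-4*, 4 and 7 in *ets-4/daf-16*, 7 and 3 in *ets-4/pqm-1*. In wt, 2 cold reads against 32 warm reads gave a ratio of 7.08% after TMM scaling to library size. Its exact 95% interval of 0.822% to 27.7% covers counting error only. *acs-1*, which is needed for the activation of branched-chain fatty acids, fell in 3 strains. At 20 °C, *acs-1* had 247 and 297 in wt, then 229 and 296 in *ets-4*, 209.6 and 316 in *ets-4/daf-16* and 259 and 255 in *ets-4/pqm-1* CPM. In the cold, *acs-1* had 167 and 140.4 in wt, then 122 and 110.0 in *ets-4*, 158 and 158 in *ets-4/daf-16* and 223 and 200.4 in *ets-4/pqm-1*. For *acs-1* the log2 fold change was -0.84 ± 0.17 in wt, -1.17 ± 0.18 in *ets-4*, -0.73 ± 0.17 in *ets-4/daf-16* and -0.29 ± 0.17 in *ets-4/pqm-1*, with adjusted p of 0.00327 in wt, 3.80e-04 in *ets-4*, 0.00551 in *ets-4/daf-16* and 0.187 in *ets-4/pqm-1*. The cold libraries of *ets-4/pqm-1* were the highest of the cold libraries and overlapped the warm libraries of *ets-4/daf-16*.

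Synthetases with smaller falls in all 4 strains were *acs-3*, a synthetase known to affect fat storage (-0.68 to -1.18 on the log2 scale), *acs-19*, which encodes an acetyl-CoA synthetase (-0.36 to -0.51), and *acs-21* (-1.21 to -1.67). *acs-22*, related to fatty acid transport proteins, fell too. At 20 °C, *acs-22* had 70.1 and 70.7 in wt, then 66.8 and 59.9 in *ets-4*, 49.1 and 59.2 in *ets-4/daf-16* and 54.98 and 52.2 in *ets-4/pqm-1* CPM. In the cold, *acs-22* had 44.9 and 37.4 in wt, then 40.6 and 33.7 in *ets-4*, 29.6 and 27.1 in *ets-4/daf-16* and 26.3 and 28.4 in *ets-4/pqm-1*, below all warm libraries. For *acs-22* the log2 fold change was -0.8 ± 0.12 in wt, -0.77 ± 0.12 in *ets-4*, -0.94 ± 0.12 in *ets-4/daf-16* and -0.98 ± 0.12 in *ets-4/pqm-1*, with no adjusted p above 2.49e-04. *acs-20*, which is related to *acs-22*, had log2 fold changes of 0.14 to 0.67 and was not called.

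In the other direction, *acs-17* and *acs-16* rose in every strain. At 20 °C, *acs-17* (WBGene00016716, chromosome X, 5937506 to 5944510) had 33.8 and 44.6 in wt, then 35.7 and 49.4 in *ets-4*, 34.04 and 55.4 in *ets-4/daf-16* and 45.2 and 62.7 in *ets-4/pqm-1* CPM. In the cold, *acs-17* had 116 and 130.0 in wt, then 145 and 161 in *ets-4*, 87.2 and 111 in *ets-4/daf-16* and 144 and 162 in *ets-4/pqm-1*. Each cold library lay above every warm library, with the cold libraries of *ets-4/daf-16* lowest among the cold ones. For *acs-17* the log2 fold change was 1.65 ± 0.12 in wt, 1.86 ± 0.12 in *ets-4*, 1.16 ± 0.12 in *ets-4/daf-16* and 1.51 ± 0.12 in *ets-4/pqm-1*, with no adjusted p above 1.21e-05. At 20 °C, *acs-16* had 2.46 and 2.87 in wt, then 2.72 and 4.05 in *ets-4*, 3.11 and 3.38 in *ets-4/daf-16* and 3.72 and 5.2 in *ets-4/pqm-1* CPM. In the cold, *acs-16* had 6.04 and 5.44 in wt, then 7.88 and 8.84 in *ets-4*, 8.72 and 9.33 in *ets-4/daf-16* and 11.4 and 11.3 in *ets-4/pqm-1*, again above every warm library. For *acs-16* the log2 fold change was 1.1 ± 0.18 in wt, 1.32 ± 0.18 in *ets-4*, 1.48 ± 0.18 in *ets-4/daf-16* and 1.35 ± 0.17 in *ets-4/pqm-1*, with no adjusted p above 3.70e-04.

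*acs-12* rose less. At 20 °C, *acs-12* had 10.96 and 11.6 in wt, then 12.2 and 12.2 in *ets-4*, 13.2 and 13.9 in *ets-4/daf-16* and 13.1 and 13.02 in *ets-4/pqm-1* CPM. In the cold, *acs-12* had 20.98 and 15.8 in wt, then 21.5 and 23.1 in *ets-4*, 19.2 and 19.4 in *ets-4/daf-16* and 18.004 and 17.3 in *ets-4/pqm-1*, above every warm library. For *acs-12* the log2 fold change was 0.69 ± 0.12 in wt, 0.88 ± 0.12 in *ets-4*, 0.51 ± 0.12 in *ets-4/daf-16* and 0.42 ± 0.12 in *ets-4/pqm-1*, with no adjusted p above 0.0112. *acs-4*, one of the most highly expressed synthetases per length, rose by 0.3 to 0.45 on the log2 scale. *acs-9*, at around 1 CPM, was called up in *ets-4* alone of the 4 strains. At 20 °C, *acs-9* had 0.53 and 0.61 in wt, then 0.316 and 0.782 in *ets-4*, 0.933 and 0.868 in *ets-4/daf-16* and 0.681 and 1.16 in *ets-4/pqm-1* CPM. In the cold, *acs-9* had 0.85 and 1.07 in wt, then 1.28 and 1.09 in *ets-4*, 1.38 and 1.41 in *ets-4/daf-16* and 1.36 and 1.12 in *ets-4/pqm-1*, and the temperatures overlapped. Its log2 fold change in *ets-4* was 1.11 (SE 0.37, adjusted p = 0.0291), and the call was lost without replicate 1 of *ets-4* at 20 °C (adjusted p = 0.262), without replicate 1 of *ets-4* at 4 °C (adjusted p = 0.184), and without the replicate block (adjusted p = 0.0596). *acs-13*, the synthetase with the highest level per length, was called in *ets-4/pqm-1* alone. At 20 °C, *acs-13* had 786 and 701 in wt, then 704 and 592 in *ets-4*, 495 and 495 in *ets-4/daf-16* and 553 and 452 in *ets-4/pqm-1* CPM. In the cold, *acs-13* had 795 and 797 in wt, then 730.3 and 661 in *ets-4*, 569 and 552 in *ets-4/daf-16* and 654 and 615 in *ets-4/pqm-1*. For *acs-13* the log2 fold change was 0.08 ± 0.08 in wt, 0.11 ± 0.08 in *ets-4*, 0.18 ± 0.08 in *ets-4/daf-16* and 0.33 ± 0.08 in *ets-4/pqm-1*, with adjusted p of 0.473 in wt, 0.328 in *ets-4*, 0.0892 in *ets-4/daf-16* and 0.00553 in *ets-4/pqm-1*.

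Among the 13 acyl-CoA dehydrogenases none rose in any strain. A total of 5 fell in wt, 5 in *ets-4*, 8 in *ets-4/daf-16* and 6 in *ets-4/pqm-1*. Of all tested genes, 22.6%, 23.1%, 28.5% and 25.8% fell and 19%, 21.3%, 25.8% and 25.9% rose in the same order. *acdh-1* (WBGene00016943, chromosome I, 6497436 to 6499560), which acts in the breakdown of propionate and of branched-chain amino acids and responds to diet, carried most of the family's reads. At 20 °C, *acdh-1* had 1649 and 1793 in wt, then 1805 and 2152 in *ets-4*, 2172 and 2181 in *ets-4/daf-16* and 2201 and 2167 in *ets-4/pqm-1* CPM. In the cold, *acdh-1* had 928 and 907 in wt, then 969 and 1072 in *ets-4*, 1037 and 885 in *ets-4/daf-16* and 1009 and 867 in *ets-4/pqm-1*. All warm libraries lay above all cold ones. For *acdh-1* the log2 fold change was -0.93 ± 0.1 in wt, -0.95 ± 0.1 in *ets-4*, -1.18 ± 0.1 in *ets-4/daf-16* and -1.23 ± 0.1 in *ets-4/pqm-1*, with no adjusted p above 1.38e-05.

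*acdh-2* (WBGene00015894, chromosome II, 5544778 to 5547492) fell much further. At 20 °C, *acdh-2* had 123 and 108 in wt, then 75.1 and 37.7 in *ets-4*, 78.7 and 24.6 in *ets-4/daf-16* and 57.2 and 10.7 in *ets-4/pqm-1* CPM. In the cold, *acdh-2* had 10.9 and 7.96 in wt, then 4.81 and 1.24 in *ets-4*, 6.04 and 1.11 in *ets-4/daf-16* and 2.91 and 1.34 in *ets-4/pqm-1*. The lowest warm library, replicate 2 of *ets-4/pqm-1*, was just below the highest cold library, replicate 1 of wt. Within each strain both cold libraries were lower than both warm ones, and replicate 2 was below replicate 1 in all 8 groups. For *acdh-2* the log2 fold change was -3.72 ± 0.54 in wt, -4.34 ± 0.59 in *ets-4*, -3.88 ± 0.58 in *ets-4/daf-16* and -3.8 ± 0.61 in *ets-4/pqm-1*, with no adjusted p above 9.96e-04. *acdh-3* and *acdh-9* also fell in all 4 strains, with log2 fold changes of -0.32 to -0.38 and -0.76 to -1.02.

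*acdh-7* and *acdh-12*, related to the human medium-chain and very long-chain enzymes, differed little between the temperatures. At 20 °C, *acdh-7* had 81.9 and 78.3 in wt, then 73.03 and 64.1 in *ets-4*, 68.7 and 59.8 in *ets-4/daf-16* and 63.8 and 49.4 in *ets-4/pqm-1* CPM. In the cold, *acdh-7* had 81.3 and 74.9 in wt, then 77.96 and 60.8 in *ets-4*, 62.1 and 54.7 in *ets-4/daf-16* and 62.9 and 51.6 in *ets-4/pqm-1*. For *acdh-7* the log2 fold change was -0.06 ± 0.07 in wt, 0.01 ± 0.07 in *ets-4*, -0.14 ± 0.07 in *ets-4/daf-16* and 0.01 ± 0.07 in *ets-4/pqm-1* and the lowest adjusted p was 0.113. In each strain the warm and cold levels of *acdh-7* overlapped. At 20 °C, *acdh-12* had 286 and 265 in wt, then 264 and 241 in *ets-4*, 247 and 223 in *ets-4/daf-16* and 244 and 189.8 in *ets-4/pqm-1* CPM. In the cold, *acdh-12* had 297 and 274 in wt, then 282 and 248 in *ets-4*, 268 and 229.7 in *ets-4/daf-16* and 248 and 212 in *ets-4/pqm-1*. For *acdh-12* the log2 fold change was 0.03 ± 0.06 in wt, 0.07 ± 0.06 in *ets-4*, 0.08 ± 0.06 in *ets-4/daf-16* and 0.08 ± 0.06 in *ets-4/pqm-1*, none of them called, and its levels overlapped in each strain too. *acdh-10* and *acdh-11* had log2 fold changes of 0.01 to 0.14 and -0.04 to 0.06 and were not called. *acdh-11* is known to restrain the fatty acid desaturase gene *fat-7* during adaptation to heat.

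All but 1 of the 7 peroxisomal acyl-CoA oxidases fell in wt, and 5 fell in all 4 strains. Of all tested genes, 22.6% fell in wt and 16.4% in all 4 strains. *acox-1.1* to *acox-1.4* lie in tandem on 1 strand of chromosome I, with gaps of 52, 343 and 34 bases between neighbours. Since reads that mapped to more than 1 place were left out, the levels of such related copies are uncertain. *acox-1.1*, which shortens ascaroside side chains, had the highest level of the 4. At 20 °C, *acox-1.1* (WBGene00008564, chromosome I, 12938555 to 12942227) had 45.95 and 49.98 in wt, then 53.9 and 59.4 in *ets-4*, 57.01 and 61.9 in *ets-4/daf-16* and 52.2 and 54.7 in *ets-4/pqm-1* CPM. In the cold, *acox-1.1* had 20.9 and 25.3 in wt, then 21.4 and 28.4 in *ets-4*, 22.3 and 35.2 in *ets-4/daf-16* and 11.1 and 20.2 in *ets-4/pqm-1*. All cold libraries were below all warm ones, with *ets-4/pqm-1* lowest. For *acox-1.1* the log2 fold change was -1.08 ± 0.18 in wt, -1.19 ± 0.18 in *ets-4*, -1.07 ± 0.18 in *ets-4/daf-16* and -1.82 ± 0.19 in *ets-4/pqm-1*, with no adjusted p above 7.33e-04.

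The other 3 of the tandem fell further than *acox-1.1*. At 20 °C, *acox-1.2* had 15.9 and 13.6 in wt, then 27.1 and 24.9 in *ets-4*, 30.9 and 34.1 in *ets-4/daf-16* and 22.5 and 21.04 in *ets-4/pqm-1* CPM. In the cold, *acox-1.2* had 1.88 and 1.93 in wt, then 2.87 and 3.17 in *ets-4*, 2.67 and 3.21 in *ets-4/daf-16* and 2.33 and 2.82 in *ets-4/pqm-1*. For *acox-1.2* the log2 fold change was -2.98 ± 0.16 in wt, -3.1 ± 0.15 in *ets-4*, -3.46 ± 0.15 in *ets-4/daf-16* and -3.09 ± 0.15 in *ets-4/pqm-1*. Among the warm libraries those of wt were the lowest. At 20 °C, *acox-1.3* had 10.4 and 12.5 in wt, then 14.7 and 19.2 in *ets-4*, 23.2 and 25.98 in *ets-4/daf-16* and 23.2 and 27.6 in *ets-4/pqm-1* CPM. In the cold, *acox-1.3* had 0.996 and 1.31 in wt, then 1.59 and 2.2 in *ets-4*, 2.27 and 3.18 in *ets-4/daf-16* and 2.31 and 4.33 in *ets-4/pqm-1*. For *acox-1.3* the log2 fold change was -3.34 ± 0.18 in wt, -3.15 ± 0.17 in *ets-4*, -3.19 ± 0.17 in *ets-4/daf-16* and -2.98 ± 0.16 in *ets-4/pqm-1*. Warm wt was again lowest among the warm libraries, and all 3 genes had every warm library above every cold one. At 20 °C, *acox-1.4* had 18.6 and 17.8 in wt, then 20.7 and 25.4 in *ets-4*, 13.96 and 16.7 in *ets-4/daf-16* and 17.1 and 24.1 in *ets-4/pqm-1* CPM. In the cold, *acox-1.4* had 2.05 and 1.72 in wt, then 2.7 and 1.52 in *ets-4*, 1.21 and 1.25 in *ets-4/daf-16* and 2.35 and 1.85 in *ets-4/pqm-1*. For *acox-1.4* the log2 fold change was -3.29 ± 0.27 in wt, -3.45 ± 0.27 in *ets-4*, -3.64 ± 0.28 in *ets-4/daf-16* and -3.3 ± 0.26 in *ets-4/pqm-1*, and over these 3 genes and 4 strains the highest adjusted p was 2.21e-06. *acox-3* also fell in all 4 strains, with log2 fold changes of -1.07 to -1.68.

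*acox-1.5* on chromosome III differed from the other oxidases. At 20 °C, *acox-1.5* had 25.5 and 34.5 in wt, then 7.92 and 14.9 in *ets-4*, 7.8 and 18.3 in *ets-4/daf-16* and 9.87 and 19.3 in *ets-4/pqm-1* CPM. In the cold, *acox-1.5* had 47.6 and 35.3 in wt, then 16.4 and 19.7 in *ets-4*, 13.5 and 21.2 in *ets-4/daf-16* and 36.2 and 33.7 in *ets-4/pqm-1*. The levels overlapped between the temperatures. Both wt libraries were above those of *ets-4* at 4 °C and above the libraries labelled *ets-4* at 20 °C. For *acox-1.5* the log2 fold change was 0.51 ± 0.35 in wt, 0.7 ± 0.37 in *ets-4*, 0.44 ± 0.36 in *ets-4/daf-16* and 1.32 ± 0.36 in *ets-4/pqm-1*, called in *ets-4/pqm-1* alone (adjusted p = 0.0134). That call was lost without replicate 1 of this strain at 20 °C (adjusted p = 0.0817) or at 4 °C (adjusted p = 0.137), and also without the replicate block (adjusted p = 0.0567).

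**Figure D3:**
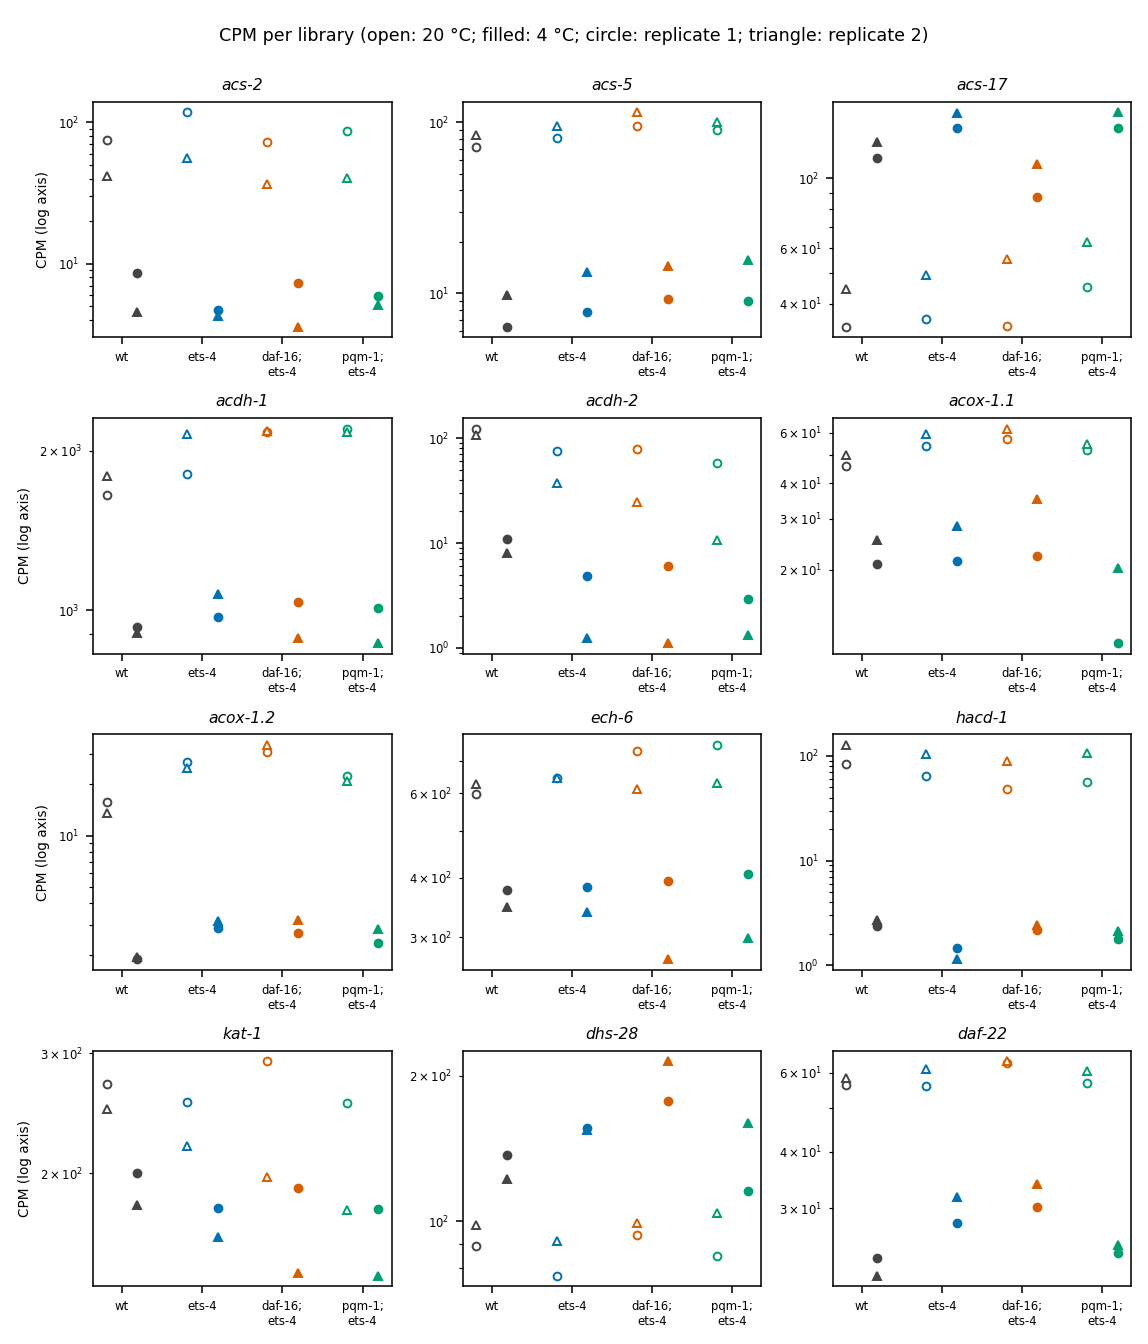
CPM on log axes in each of the 16 libraries for 12 of the genes, by strain; open symbols are 20 °C, filled symbols 4 °C, circles replicate 1 and triangles replicate 2. The open symbols lie above the filled ones in *acs-2*, *acs-5*, *acdh-1*, *acox-1.1*, *acox-1.2*, *ech-6*, *hacd-1* and *daf-22*, below them in *acs-17* and *dhs-28*, and overlap with them in *acdh-2* and *kat-1*.

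Of the 10 genes of the enoyl-CoA hydratase family, 6 fell and 2 rose in wt, 6 fell and 1 rose in *ets-4*, 7 fell and 1 rose in *ets-4/daf-16*, and 5 fell and 1 rose in *ets-4/pqm-1*. Of all tested genes, 22.6%, 23.1%, 28.5% and 25.8% fell and 19%, 21.3%, 25.8% and 25.9% rose in the same order. *ech-6* (WBGene00001155, chromosome III, 9751552 to 9752883), the short-chain enoyl-CoA hydratase that also serves propionate breakdown, had the highest level of the family per length. At 20 °C, *ech-6* had 598 and 628 in wt, then 645 and 647 in *ets-4*, 736 and 614 in *ets-4/daf-16* and 757 and 631 in *ets-4/pqm-1* CPM. In the cold, *ech-6* had 376 and 347 in wt, then 381 and 339.5 in *ets-4*, 394 and 270.0 in *ets-4/daf-16* and 407 and 299 in *ets-4/pqm-1*. All cold libraries lay below all warm ones. For *ech-6* the log2 fold change was -0.79 ± 0.11 in wt, -0.84 ± 0.11 in *ets-4*, -1.03 ± 0.11 in *ets-4/daf-16* and -0.99 ± 0.11 in *ets-4/pqm-1*, with no adjusted p above 1.35e-04. *ech-3*, *ech-5*, *ech-7* and *ech-8* fell in all 4 strains, with log2 fold changes of -1.18 to -1.63, -0.64 to -0.83, -1.3 to -1.54 and -1.99 to -2.15. *ech-1.2*, one of 2 genes for the alpha subunit of the mitochondrial trifunctional protein, rose by 0.19 to 0.31. The other, *ech-1.1*, fell in wt and in *ets-4/daf-16*, with log2 fold changes of -0.99 to -1.34 over the strains.

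*ech-9* (WBGene00001158, chromosome IV, 10233310 to 10235329) rose in wt. It lies 1296 bases from *ech-8* on the same strand, and both resemble the peroxisomal enzymes that carry hydratase and dehydrogenase activity in 1 protein. The reads of *ech-9* at 20 °C were 11 and 51 in wt, then 1 and 2 in *ets-4*, 2 and 5 in *ets-4/daf-16*, 1 and 3 in *ets-4/pqm-1*. Its reads at 4 °C were 391 and 456 in wt, then 1 and 14 in *ets-4*, 3 and 7 in *ets-4/daf-16*, 0 and 3 in *ets-4/pqm-1*. Only the cold wt libraries had more than 51 reads. In wt the log2 fold change was 4.22 (SE 0.5, adjusted p = 3.80e-05), and its neighbour *ech-8* fell there by 2.01 on the log2 scale (adjusted p = 1.41e-05). In the strains with the *ets-4* allele the cold response of *ech-9* was not called, with adjusted p of 0.0923, 0.477 and 0.871 in *ets-4*, *ets-4/daf-16* and *ets-4/pqm-1*.

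**Figure D4:**
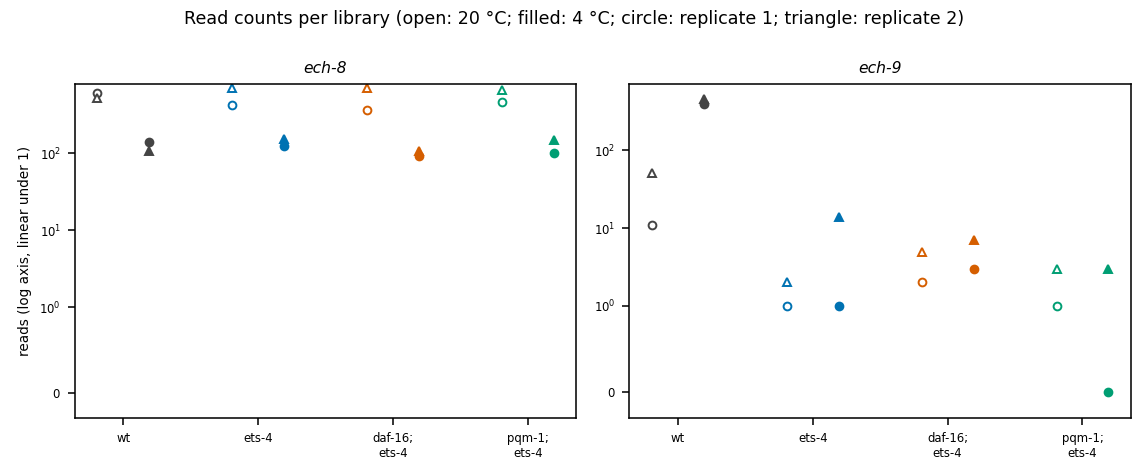
Reads per library of the neighbouring genes *ech-8* and *ech-9* (vertical axes, log scale and linear under 1) by strain; open symbols are 20 °C, filled symbols 4 °C, circles replicate 1 and triangles replicate 2. *ech-9* reached 391 and 456 reads in cold wt and stayed at 0 to 14 in every library of a strain with the *ets-4* allele, while *ech-8* was lower in the cold in all 4 strains.

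Among the 5 genes of the later steps, *hacd-1* (WBGene00019978, chromosome V, 1460369 to 1461613), which encodes a 3-hydroxyacyl-CoA dehydrogenase, fell furthest of all 57 genes in every strain. At 20 °C, *hacd-1* had 83.7 and 127 in wt, then 63.9 and 104 in *ets-4*, 48.8 and 90.1 in *ets-4/daf-16* and 56.8 and 107 in *ets-4/pqm-1* CPM. In the cold, *hacd-1* had 2.37 and 2.71 in wt, then 1.45 and 1.14 in *ets-4*, 2.16 and 2.42 in *ets-4/daf-16* and 1.8 and 2.14 in *ets-4/pqm-1*. The lowest warm library was far above the highest cold one. For *hacd-1* the log2 fold change was -5.38 ± 0.24 in wt, -5.99 ± 0.26 in *ets-4*, -4.88 ± 0.24 in *ets-4/daf-16* and -5.34 ± 0.25 in *ets-4/pqm-1*, with no adjusted p above 1.30e-07. *kat-1*, a mitochondrial thiolase, fell little. At 20 °C, *kat-1* had 271 and 248 in wt, then 254 and 219 in *ets-4*, 292 and 197 in *ets-4/daf-16* and 253 and 176 in *ets-4/pqm-1* CPM. In the cold, *kat-1* had 199.9 and 179.7 in wt, then 178 and 161 in *ets-4*, 190.3 and 143 in *ets-4/daf-16* and 177 and 141 in *ets-4/pqm-1*. The temperatures overlapped, and the log2 fold change was -0.47 ± 0.09 in wt, -0.47 ± 0.09 in *ets-4*, -0.54 ± 0.09 in *ets-4/daf-16* and -0.43 ± 0.09 in *ets-4/pqm-1* with no adjusted p above 0.00245. Without the replicate block *kat-1* was called in 0 of the 4 strains, with adjusted p of 0.109, 0.1, 0.0545 and 0.121 in the same order.

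The 3 peroxisomal enzymes that follow the oxidases did not move together. *maoc-1*, the peroxisomal enoyl-CoA hydratase, was called down in wt and in *ets-4/pqm-1*. At 20 °C, *maoc-1* had 59.1 and 57.4 in wt, then 49.4 and 61.4 in *ets-4*, 50.4 and 56.1 in *ets-4/daf-16* and 48.5 and 54.7 in *ets-4/pqm-1* CPM. In the cold, *maoc-1* had 34.6 and 36.7 in wt, then 38.9 and 52.1 in *ets-4*, 38.1 and 51.2 in *ets-4/daf-16* and 32.7 and 42.5 in *ets-4/pqm-1*, overlapping with the warm levels in the *ets-4* strain and in *ets-4/daf-16*. For *maoc-1* the log2 fold change was -0.74 ± 0.12 in wt, -0.28 ± 0.12 in *ets-4*, -0.26 ± 0.12 in *ets-4/daf-16* and -0.47 ± 0.12 in *ets-4/pqm-1*, with adjusted p of 3.27e-04 in wt, 0.0668 in *ets-4*, 0.0758 in *ets-4/daf-16* and 0.00511 in *ets-4/pqm-1*. These calls moved with the block: without it *maoc-1* was not called in *ets-4/pqm-1* (adjusted p = 0.0836), and with a block within each temperature it was also called down in *ets-4* (adjusted p = 0.0388) and in *ets-4/daf-16* (adjusted p = 0.0466). *daf-22* (WBGene00013284, chromosome II, 12423518 to 12425694), the thiolase that completes the cycle, fell in all 4 strains. At 20 °C, *daf-22* had 56.5 and 58.3 in wt, then 55.98 and 61.2 in *ets-4*, 62.98 and 63.6 in *ets-4/daf-16* and 57.05 and 60.4 in *ets-4/pqm-1* CPM. In the cold, *daf-22* had 23.2 and 21.2 in wt, then 27.9 and 31.7 in *ets-4*, 30.1 and 33.9 in *ets-4/daf-16* and 23.8 and 24.9 in *ets-4/pqm-1*, below every warm library. For *daf-22* the log2 fold change was -1.39 ± 0.08 in wt, -0.97 ± 0.08 in *ets-4*, -0.98 ± 0.08 in *ets-4/daf-16* and -1.28 ± 0.08 in *ets-4/pqm-1*, with no adjusted p above 1.60e-06.

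*dhs-28* (WBGene00000991, chromosome X, 6818438 to 6820080), the peroxisomal 3-hydroxyacyl-CoA dehydrogenase between these enzymes, rose in all 4 strains instead. At 20 °C, *dhs-28* had 89.1 and 98.5 in wt, then 77.2 and 91.2 in *ets-4*, 93.7 and 99.1 in *ets-4/daf-16* and 84.6 and 104 in *ets-4/pqm-1* CPM. In the cold, *dhs-28* had 137 and 123 in wt, then 156 and 155 in *ets-4*, 177 and 214 in *ets-4/daf-16* and 116 and 160.2 in *ets-4/pqm-1*. All cold libraries were above all warm ones. For *dhs-28* the log2 fold change was 0.46 ± 0.13 in wt, 0.89 ± 0.13 in *ets-4*, 1.02 ± 0.13 in *ets-4/daf-16* and 0.53 ± 0.13 in *ets-4/pqm-1*, with no adjusted p above 0.0141. In wt the call was lost without replicate 1 at 4 °C (adjusted p = 0.132) or replicate 2 at 20 °C (adjusted p = 0.065) and also without the replicate block (adjusted p = 0.0691), and in *ets-4/pqm-1* without replicate 2 at 4 °C (adjusted p = 0.06). *dhs-28* overlaps exons of *gei-15* on the other strand by 76 bases.

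Over the 16 libraries, the members whose log2 CPM followed *daf-22* most closely were *acs-5* (Pearson r = 0.97), *acox-1.2* (r = 0.969) and *acdh-1* (r = 0.955). These libraries share the split by temperature, so the values describe genes that fell together in the cold and carry no test.

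Between strains, the question at 4 °C was which members differed in animals with the *ets-4* allele, and which did so when the *daf-16* or *pqm-1* allele was added to it. Few did. In *ets-4* against wt, 3 members were higher and 3 lower of the 56 tested, where 6% and 3.71% of the 14571 tested genes were called (*acs-24* had too few reads to be tested at 4 °C). *ech-9* was the largest difference: 15 reads in *ets-4* against 847 in wt, summed over both libraries. That is 1.7% of wt after TMM scaling to library size, with an exact 95% interval of 0.945% to 2.81% for counting error only (adjusted p = 0.00348). In the double mutants the ratio to wt was 1.18% (0.563% to 2.18%, *daf-16*) and 0.307% (0.0633% to 0.902%, *pqm-1*). The *ech-9* call held when each of the 4 libraries was left out in turn, and was lost without the replicate block (adjusted p = 0.159). By the study's 2-fold rule 2 members were lower in *ets-4*, *ech-9* and *acdh-2* (edgeR log2 difference -1.92 (SE 0.48, adjusted p = 0.0661), not called), where 0.108% of all 20447 genes were lower.

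The remaining 5 differences were smaller. *hacd-1* was lower in *ets-4*, with a log2 difference of -0.98 (SE 0.24, adjusted p = 0.0374), and so was *acs-1*, at -0.42 (SE 0.06, adjusted p = 0.00829). The cold levels of *hacd-1* and *acs-1* given above did not overlap between wt and *ets-4*. *acs-16*, *daf-22* and *acs-17* were higher in *ets-4*, with log2 differences of 0.53 (SE 0.12, adjusted p = 0.0348), 0.41 (SE 0.09, adjusted p = 0.0288) and 0.3 (SE 0.06, adjusted p = 0.0198). Each of these 5 calls was lost without replicate 1 of *ets-4*, where the adjusted p was 0.0799, 0.0668, 0.109, 0.0886 and 0.136 in the order named here. Each was also lost without replicate 2 of *ets-4*, all but *acs-1* were lost without replicate 2 of wt, and *hacd-1* was lost without replicate 1 of wt. The count of 6 became 11 without replicate 1 of wt and 2 without its replicate 2.

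In *ets-4/daf-16* against *ets-4* at 4 °C, 1 member was higher and 2 lower, where 1.74% and 2.11% of all genes were called. *acs-17* was lower, by a log2 difference of -0.62 (SE 0.06, adjusted p = 0.00114): 87.2 and 111 in *ets-4/daf-16* against 145 and 161 in *ets-4*. This call held when any 1 of the 4 libraries was left out, and was lost without the replicate block (adjusted p = 0.322). *acs-17* overlaps C46F4.3 on the other strand by 109 bases of exon. *acs-1* was higher, at 0.46 (SE 0.06, adjusted p = 0.00607), and *acs-13* lower, at -0.3 (SE 0.06, adjusted p = 0.0285). Both calls were lost when either replicate of *ets-4* was left out, which left 1 call, and also without replicate 2 of the double mutant, which left 1 call. The *acs-13* call was lost without its replicate 1 too.

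In *ets-4/pqm-1* against *ets-4* at 4 °C, 1 member was higher and 4 lower, where 3.8% and 2.1% of all genes were called. *acs-1* was higher, by a log2 difference of 0.87 (SE 0.06, adjusted p = 3.85e-04): 223 and 200.4 in *ets-4/pqm-1* against 122 and 110.0 in *ets-4* and 167 and 140.4 in wt. This call also held when any 1 of the 4 libraries was left out, and was lost without the replicate block (adjusted p = 0.0793). *acox-1.1* was lower, at -0.7 (SE 0.14, adjusted p = 0.037), and its pairs did not overlap. Lower as well were *acs-22* at -0.43 (SE 0.1, adjusted p = 0.0451), *acdh-7* at -0.27 (SE 0.06, adjusted p = 0.0455) and *acdh-12* at -0.2 (SE 0.05, adjusted p = 0.0469), the levels of *acdh-7* overlapping between the strains and those of *acdh-12* meeting at 248 CPM. These 4 calls were lost when either replicate of *ets-4* was left out: 3 members were then called without its replicate 1 and 1 without its replicate 2, all of them higher. Without replicate 1 of the double mutant 14 members were called, 10 higher and 4 lower. The excess of lower members was therefore not kept without a library of *ets-4* or without that replicate, nor in a fit to all 16 libraries (2 higher and 0 lower).

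At 20 °C the libraries labelled *ets-4* differed from wt in 3 members that were higher and 2 that were lower of 57, where 1.01% and 0.286% of the 15405 tested genes were called. *ech-9* was called lower in the warm libraries too: 3 reads against 62, or 5.12% (exact 95% interval 1.03% to 15.7%, counting error only, adjusted p = 0.0246). Of the 62 reads, 51 were in replicate 2 of wt. This *ech-9* call was lost without the replicate block (adjusted p = 0.402 by edgeR). The *ech-9* call was also lost with any 1 of the 4 libraries left out, where its log2 difference was -3.23 to -4.64. *acox-1.5* was lower, at -1.48 (SE 0.18, adjusted p = 0.014). *acox-1.2*, *acox-1.3* and *acs-2* were higher, at 0.8 (SE 0.12, adjusted p = 0.0162), 0.54 (SE 0.11, adjusted p = 0.0484) and 0.52 (SE 0.08, adjusted p = 0.021). Without either replicate labelled *ets-4* edgeR called 0 members, with 8 and 5 at an unadjusted p under 0.05, and without replicate 1 or 2 of wt it called 2 and 1.

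In the libraries labelled *ets-4/daf-16* against those labelled *ets-4* at 20 °C, 5 members were higher and 1 lower, where 3.65% and 0.695% of all genes were called. *acs-10*, *acs-18*, *acdh-5*, *acdh-8* and *acox-1.3* were higher, with log2 differences of 2.77, 2.36, 2.38, 2.8 and 0.56, and *acs-2* was lower, at -0.65 (SE 0.08, adjusted p = 0.0126). In the libraries labelled *ets-4/pqm-1* 7 were higher and 2 lower, where 7.71% and 1.62% of all genes were called. The same 5 were higher, with *acs-6* and *acs-17*, and *ech-7* and *acs-2* were lower, at -0.48 (SE 0.09, adjusted p = 0.0196) and -0.41 (SE 0.08, adjusted p = 0.0198). Without either replicate labelled *ets-4* both counts became 0 by edgeR, with 12 and 12 (*daf-16*) and 12 and 13 (*pqm-1*) members at an unadjusted p under 0.05. Without replicate 2 of *ets-4/daf-16* 10 members were called. Without replicate 1 or 2 of *ets-4/pqm-1* 14 and 1 were called.

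*acs-10*, *acs-18*, *acdh-5*, *acdh-8* and *acs-6* had low levels that moved with sperm genes. At 20 °C, *acs-10* had 0.313 and 1.19 in wt, then 0.663 and 1.34 in *ets-4*, 4.91 and 7.37 in *ets-4/daf-16* and 2.97 and 14.1 in *ets-4/pqm-1* CPM. At 20 °C, *acdh-8* had 0.53 and 2.01 in wt, then 1.26 and 3.35 in *ets-4*, 11.4 and 16.3 in *ets-4/daf-16* and 4.9 and 20.97 in *ets-4/pqm-1* CPM. The summed CPM of 11 sperm markers was 14.8 and 29.9 in wt, then 26.4 and 40.3 in *ets-4*, 92.5 and 126 in *ets-4/daf-16* and 55.05 and 196 in *ets-4/pqm-1*. The libraries labelled as double mutants were highest in each of the 3, and replicate 2 was above replicate 1 in every strain. At 4 °C the sperm markers summed to 17.02 and 25.9 in wt, then 26.9 and 37.1 in *ets-4*, 31.6 and 62.7 in *ets-4/daf-16* and 30.6 and 95.6 in *ets-4/pqm-1*. In the cold response *acs-10*, *acs-18* and *acdh-8* fell in both double mutants and *acdh-5* and *acs-6* in *ets-4/daf-16*. *acs-10* had log2 fold changes of -1.68 in *ets-4/daf-16* and -1.2 in *ets-4/pqm-1*, and 6 of the 11 sperm markers fell in each of these strains. *acs-15*, not called between the strains at 20 °C, had a like order there. Its warm levels were 0.0241 and 0.686 CPM in wt and 0.505 and 0.671 in the libraries labelled *ets-4*. Those labelled *ets-4/daf-16* had 2.08 and 3.36 and those labelled *ets-4/pqm-1* 0.953 and 4.62. The part of sperm content in these differences was not tested.

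**Figure D5:**
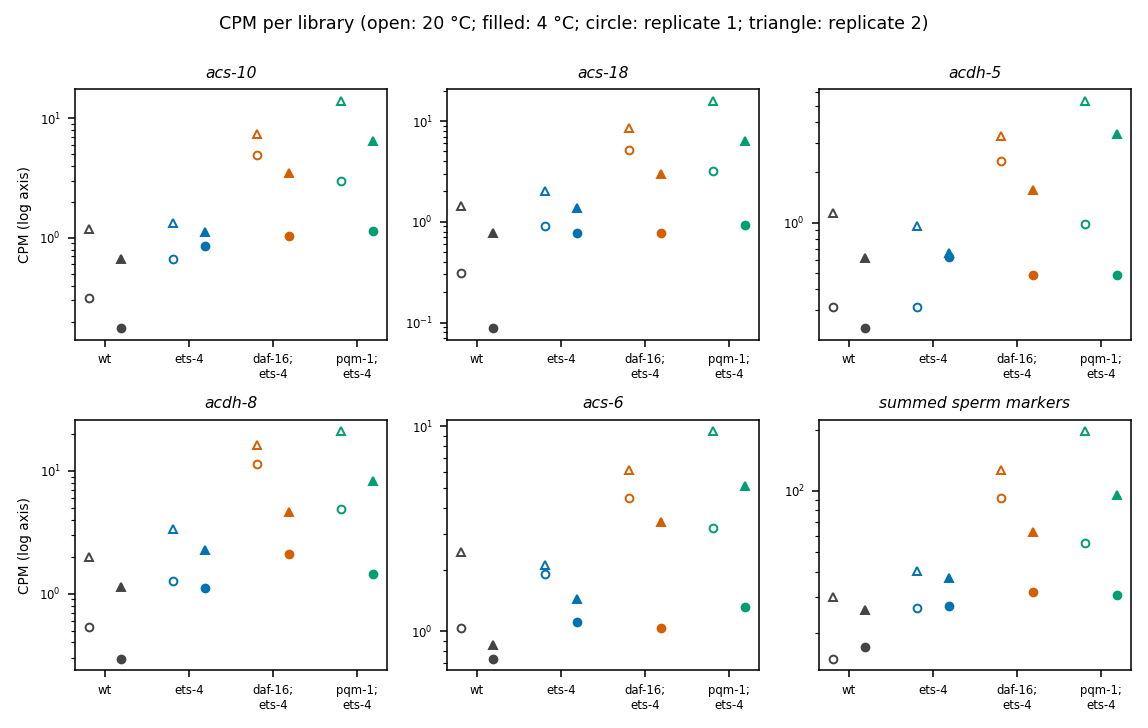
CPM on log axes in each library for *acs-10*, *acs-18*, *acdh-5*, *acdh-8* and *acs-6* and for the sum of 11 sperm marker genes, by strain; open symbols are 20 °C, filled symbols 4 °C, circles replicate 1 and triangles replicate 2. In all 6 panels the highest library is replicate 2 of *ets-4/pqm-1* at 20 °C.

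Whether the cold response itself differed between strains was tested with an interaction term. This test also uses the warm libraries, so the caution about their labels applies to it. By edgeR 0 of the 57 members were called in *ets-4* against wt, in *ets-4/daf-16* against *ets-4* and in *ets-4/pqm-1* against *ets-4*, where 0.00634%, 0.038% and 0% of all genes were called. At an unadjusted p under 0.05 there were 6, 8 and 6 members. DESeq2 called 0, 1 and 1: *acs-17* in *ets-4/daf-16* (log2 difference -0.69, adjusted p = 0.0436) and *acs-1* in *ets-4/pqm-1* (0.88, adjusted p = 0.0351), both named after their values were seen. *ech-9*, called in the cold response of wt alone, had an interaction of -1.97 (SE 1.44, adjusted p = 1.0000) in *ets-4* against wt, so a difference in its cold response was not shown.

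Other genes of fat use were counted for the cold response in lists written with earlier results of these data known. Their counts in wt stand beside 22.6% of all tested genes that fell and 19% that rose, and no enrichment was tested. Of 6 carnitine palmitoyltransferase genes (cpt), whose products carry acyl chains into mitochondria, 3 fell and 1 rose in wt. The largest fall was that of *cpt-5*, with log2 fold changes of -5.59 to -6.54 over the strains, while *cpt-1* rose by 0.22 to 0.29. Of 9 fatty acid binding protein genes, 5 fell and 0 rose in wt, led by *lbp-8* (-3.27 to -4.46) and *lbp-7* (-1.73 to -2.63). Of 11 peroxin genes (prx), which import proteins into peroxisomes or build them, 7 fell and 1 rose in wt. *prx-13* rose in all 4 strains (1.81 to 2.03) and *prx-12* fell (-1.42 to -1.99). Of 5 peroxisomal ABC transporter genes, 2 fell and 1 rose, *pmp-5* falling (-3.6 to -3.83) and *pmp-4* rising (1.34 to 2.33) in all 4 strains.

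Of 8 genes of propionate breakdown, 5 fell and 1 rose in wt. *hphd-1* and *hach-1*, which act after *acdh-1* and *ech-6* in the vitamin B12-independent route, fell in all 4 strains (-1.95 to -2.65 and -0.68 to -0.82). *pcca-1* and *pccb-1* of the B12-dependent route were not called in any, but other genes of the list moved in both directions. *mmaa-1* was lower in every cold library (91.6 to 109 CPM) than in every warm one (148 to 200 CPM). In wt *mce-1* went from 61.9 and 57.2 CPM warm to 54.1 and 47.9 cold, and *mmcm-1* from 185 and 187 to 217 and 215. Of 12 other thiolase, dehydrogenase and reductase genes 5 fell and 0 rose. Of 4 genes of fatty acid synthesis 1 fell, *fasn-1* (-0.7 to -1.03 over the strains), and 1 rose. Among 12 regulators of fat use 3 fell and 4 rose in wt. *nhr-68* and *nhr-80* fell in all 4 strains (-2.76 to -3.51 and -2.29 to -2.56), and *klf-3* and *mdt-15* rose (1.01 to 1.81 and 0.59 to 0.87). *nhr-49* itself, whose product acts on *acs-2*, had log2 fold changes of -0.21 to 0.02 over the strains and was called in wt alone.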

How the data were processed

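The authors deposited raw counts per gene for 16 libraries. Per the paper's methods they mapped single-end reads of 50 cycles to WBcel235 with STAR, with at most 3 mismatches and unique hits only, and counted reads on exons of protein-coding genes with summarizeOverlaps. Whether counting used the strand is not given in the sources used here. A total of 15 of the 57 genes share exon bases with another counted gene.

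Counts were tested with edgeR 4.0.16 (R 4.3.3) by the quasi-likelihood test with TMM, filterByExpr, robust estimation and Benjamini-Hochberg adjustment at 0.05. Cold responses and interactions used all 16 libraries (15775 genes tested). Strain comparisons used the 8 libraries of 1 temperature, 14571 genes at 4 °C and 15405 at 20 °C. A standard error was taken as the size of the log2 change over the root of the F statistic. The 2-fold rule scaled counts to library totals and added 8. The fits were tested on simulated counts.

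The replicate number entered as a block because the study compared same-numbered replicates. Deviations of same-numbered libraries from their group means correlated at 0.302 to 0.756 over all 28 pairs of groups and 11945 genes.

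Symbols and positions came from Ensembl release 115, which holds 20159 (98.6%) of the 20447 genes. Exon lengths came from its merged exons. The members, gene lists and marker lists were chosen with earlier results of these data known. Values in every library were given for 9 enzymes of the main steps, for up to 4 risers and 4 fallers called in each cold response and in each strain comparison at 4 °C, and for members called in an interaction. The alternatives were no block, a block within temperature, DESeq2 1.42.0, its size factors, no filter, fits to all 16 libraries, each library left out, and a pseudocount of 1 or TMM scaling in the 2-fold rule. Figures were drawn with matplotlib 3.10.9.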

Additional observations from a re-analysis of the deposited data

How the results depend on the processing

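Of the named members' values run under alternatives, 0 reversed direction where either fit passed the threshold. The counts were compared by size only, and their balance of directions did turn in *ets-4/pqm-1* against *ets-4* at 4 °C. With no replicate block edgeR called 0 members in each of the 6 strain comparisons (11, 5 and 9 at an unadjusted p under 0.05 at 4 °C, and 5, 7 and 8 at 20 °C, in the order *ets-4*, *ets-4/daf-16*, *ets-4/pqm-1*), against 6, 3, 5, 5, 6 and 9 with it, and of all genes 0, 23 and 7 at 4 °C and 3, 4 and 4 at 20 °C, while the cold responses had 30, 30, 32 and 31 calls. DESeq2 called 12 members in *ets-4* against wt and 9 in *ets-4/pqm-1* at 4 °C, 10 in *ets-4/daf-16* at 20 °C, and 1 in the interaction of each double mutant. A fit to all 16 libraries called 2, 1 and 2 members at 4 °C (in *ets-4/pqm-1* 2 up and 0 down, against 1 up and 4 down) and 2 in *ets-4* against wt at 20 °C.

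Leaving out each library in turn gave 31 to 33 calls in the cold response of wt, 30 to 35 in *ets-4*, 33 to 41 in *ets-4/daf-16* and 31 to 41 in *ets-4/pqm-1*. The strain comparisons ranged over 1 to 11, 1 to 2 and 1 to 14 calls at 4 °C and 0 to 2, 0 to 10 and 0 to 14 at 20 °C, and the interactions over 0, 0 to 1 and 0. The interaction called without replicate 2 of *ets-4/daf-16* at 20 °C was that of *acdh-8* (adjusted p = 0.0424). Under the other alternatives these counts stayed within 1.5 times. Without a block 42 of 93 values of named members fell below the threshold in the same direction, under DESeq2 1 of 92, in the fit to all 16 libraries 17 of 34, and without either warm *ets-4* library 21 and 20 of 34. With 2 libraries per group, strain differences depend on the block and on single libraries, and genes with few reads such as *ech-9* and *acs-24* are limited by depth. The cause of these changes was not tested.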

Other observations

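At 4 °C some genes around these enzymes differed between strains, in 8 lists written with earlier results known. Of the 65 genes tested in them, edgeR called 8 higher and 4 lower in *ets-4* against wt (6% and 3.71% of all genes), 0 and 4 in *ets-4/daf-16* against *ets-4* (1.74% and 2.11%), and 2 and 2 in *ets-4/pqm-1* against *ets-4* (3.8% and 2.1%). Without the replicate block, 0, 23 and 7 of all genes were called in these comparisons. The genes named here were chosen after their values were seen. In *ets-4* against wt, *cpt-4*, a carnitine palmitoyltransferase gene, was higher, with a log2 difference of 1.4 (SE 0.14, adjusted p = 0.00202) by edgeR, and it was higher again in *ets-4/pqm-1* against *ets-4*, at 0.89 (SE 0.13, adjusted p = 0.0103). *pmp-1*, a peroxisomal transporter gene, was lower in *ets-4*, at -1.91 (SE 0.35, adjusted p = 0.04). *pmp-4* was higher in *ets-4*, at 0.5 (SE 0.1, adjusted p = 0.0238), and lower in *ets-4/pqm-1*, at -0.7 (SE 0.1, adjusted p = 0.0112). In *ets-4/daf-16* 3 of 8 propionate genes, *mce-1*, *mmcm-1* and *pccb-1* of the B12-dependent route of propionate breakdown were lower, at -0.42 (SE 0.06, adjusted p = 0.00874), -0.26 (SE 0.05, adjusted p = 0.0275) and -0.3 (SE 0.07, adjusted p = 0.044). These comparisons share the *ets-4* libraries.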
